A study of Homo sapiens with 4 samples.

Results

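The miR-183 cluster is a group of 3 microRNAs (miRNAs), hsa-miR-183-5p, hsa-miR-182-5p and hsa-miR-96-5p, that are encoded close together on chromosome 7. Its members were chosen by name, and all 3 were found among the 843 distinct miRNA names in the count table, made up of 570 known miRNAs and 273 that the authors predicted. The values came from miRNA sequencing after RNA pull-down in 2 established lines of human gastric cancer, HGC27 and AGS. Both lines carried a lentivirus from which the FN1 3′-UTR, the untranslated 3′ end of the fibronectin message, was stably overexpressed, so no library came from cells without that construct. The 4 groups were HGC27 with the negative probe, HGC27 with the positive probe, AGS with the negative probe and AGS with the positive probe, where the probes are RNA made in vitro against the FN1 3′-UTR and held on beads that are mixed with cell lysate. Each group was 1 library. The paper's methods speak of antisense RNA on the beads without tying it to the positive or the negative probe. Which strand each probe carried is thus not stated, so the ratios below say nothing on which strand was bound.

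The members are cut from hairpins of 1 primary transcript, and the cluster is best known from sensory cells: in the retina and the inner ear these miRNAs are abundant, and changes in the seed of miR-96 cause inherited hearing loss. The cluster is also often found at high levels in epithelial tumours, where FOXO transcription factors are among the known targets of miR-96 and miR-182. A miRNA is loaded into an Argonaute protein and pairs with target messages mainly through its seed, the bases 2 to 8 from its 5′ end, so members with different seeds can have different targets even when they come from the same transcript.

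The mature sequences are shown because the seeds set the members apart from each other, and because a predicted entry in the table turned out to be a longer form of a member. They are written 5′ to 3′ as in the deposited table, with the seed in capitals, and the 3 members match the RefSeq entries of GRCh38.p14.
miR-183-5p: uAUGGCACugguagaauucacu
miR-182-5p: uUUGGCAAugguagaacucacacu
miR-96-5p: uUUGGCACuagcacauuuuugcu
predicted entry on chromosome 7: uUUGGCAAugguagaacucacacug

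No pair of members had the same seed. Counting from 1 at the 5′ end, the seed of miR-182-5p differed from that of miR-183-5p by U2A and A8C, that of miR-96-5p differed from miR-183-5p by U2A, and that of miR-182-5p differed from miR-96-5p by A8C. Outside the seed, miR-183-5p and miR-182-5p were alike over a run of 8 bases (ugguagaa), which miR-96-5p lacked. Their lengths were 22, 24 and 23 bases for miR-183-5p, miR-182-5p and miR-96-5p. Among known miRNAs in RefSeq, miR-1271-5p has the seed of miR-96-5p, and it was not listed in the table.

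All 3 hairpins lie on the minus strand of chromosome 7 in GRCh38, in an intergenic stretch between the protein-coding genes NRF1 (129611714 to 129757082) and UBE2H (129830732 to 129952949). MIR183 spans 129774905 to 129775014, MIR96 spans 129774692 to 129774769 and MIR182 spans 129770383 to 129770492. The cluster covers 4632 bases in all, with 135 bases between MIR183 and MIR96 and 4199 bases between MIR96 and MIR182. The mature miR-183-5p lies at chr7:129774967-129774988, miR-96-5p at chr7:129774739-129774761 and miR-182-5p at chr7:129770447-129770470, each within its own miRNA gene and within no other annotated gene.

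The fourth sequence is an entry that the authors predicted from reads on chromosome 7. It is miR-182-5p with 1 more base at the 3′ end, a G, marked by the capital in the form below.
extended miR-182 entry: uuuggcaaugguagaacucacacuG
The RefSeq MIR182 hairpin holds this longer sequence in 1 copy, so the extra G is encoded in the genome. Its seed is that of miR-182-5p, and it is called the extended miR-182 entry here. It was not chosen as a member, and its values are given beside those of miR-182-5p because the table counted the forms apart. How the authors assigned a read that fits both forms is not given in the sources used here.

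The table held 1296853 to 2955078 miRNA counts per library and 342 to 609 listed entries. In AGS, miR-372-3p alone took 80.8% of the table counts with the negative probe and 37.5% with the positive probe, against 0.178% and 0.300% in HGC27. Levels are given below as normalized tags, the authors' score of tags per 1000000, rounded to whole numbers. The total behind a share of the table was thus filled by miR-372-3p to a different extent in each library, and differences below are also given relative to the median of all entries.

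miR-183-5p was the most abundant member in all 4 libraries, miR-182-5p came next, and miR-96-5p was the least abundant. miR-183-5p had 12140 counts (4177 normalized tags) in HGC27 with the negative probe and 6728 counts (2435) with the positive probe. In AGS it had 3097 counts (431) with the negative probe and 1939 counts (454) with the positive probe. Its rank among the listed entries was between 15 and 23 in every library, so it stood near the top of the table in both lines.

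miR-182-5p had 3431 counts (1180 normalized tags) and 1923 counts (696) in HGC27 with the negative and the positive probe. In AGS it had 1311 counts (183) and 466 counts (109) in the same order. The positive probe library was the lower one in both lines, and its ranks ran from 31 to 51.

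miR-96-5p had 780 counts (268 normalized tags) and 1301 counts (471) in HGC27 with the negative and the positive probe. In AGS it had 199 counts (28) and 150 counts (35). The AGS values rest on few reads, and in AGS the positive probe library had fewer counts but more normalized tags, so that direction depends on the scaling. Its rank was 57 to 69.

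The sum of the 3 members was 16351 and 9952 counts in HGC27 with the negative and the positive probe, which was 1.13% and 0.767% of the table counts. In AGS it was 4607 and 2555 counts, or 0.156% and 0.167%. The other arms of the hairpins were nearly missing: miR-182-3p had 9 counts in HGC27 with the positive probe and was at 0 in the other libraries, and miR-183-3p and miR-96-3p were not listed.

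**Figure D1:**
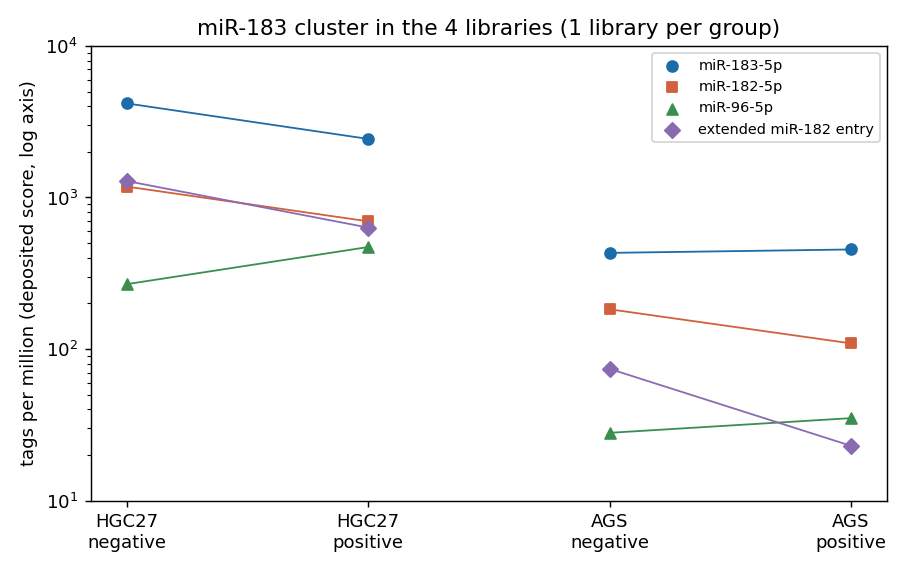
Normalized tags per 1000000 (deposited score, log axis) of the 3 members and of the extended miR-182 entry in the 4 libraries, with 1 point per library and lines joining the probes of a cell line. miR-183-5p is the highest in all 4 libraries, from 431 to 4177 normalized tags, and the extended entry is below miR-96-5p (23 against 35) only in AGS with the positive probe.

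The composition of the cluster, each member's share of the summed counts of the 3, does not depend on how the libraries are scaled. miR-183-5p made up 74.2% (exact 95% binomial interval 73.6 to 74.9) of the cluster in HGC27 with the negative probe and 67.6% (66.7 to 68.5) with the positive probe. In AGS its share was 67.2% (65.8 to 68.6) and 75.9% (74.2 to 77.5) in the same order. The share of miR-183-5p was thus lower with the positive probe in HGC27 and higher with it in AGS, outside the counting intervals in both lines.

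The share of miR-182-5p was 21.0% (20.4 to 21.6) and 19.3% (18.6 to 20.1) in HGC27 and 28.5% (27.2 to 29.8) and 18.2% (16.8 to 19.8) in AGS, with the negative and the positive probe. The share of miR-96-5p was 4.77% (4.45 to 5.11) and 13.1% (12.4 to 13.8) in HGC27 and 4.32% (3.75 to 4.95) and 5.87% (4.99 to 6.85) in AGS. With the negative probe the miR-96-5p share of the lines had overlapping intervals, and the 13.1% of HGC27 with the positive probe stood above the other 3 libraries. These intervals cover counting error only, and with 1 library per group no replicate error stands beside these differences.

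Counting the extended entry with miR-182-5p changed the proportions of the cluster. The extended entry had 3733 and 1751 counts in HGC27 and 533 and 100 counts in AGS, with the negative and the positive probe. It made up 52.1% (50.9 to 53.3) and 47.7% (46.0 to 49.3) of the summed counts of both miR-182 forms in HGC27, and 28.9% (26.8 to 31.0) and 17.7% (14.6 to 21.1) in AGS. The longer form was thus about as frequent as the listed miR-182-5p in HGC27 and the minor form in AGS, and in each line its share was lower with the positive probe. With all entries of each hairpin, miR-182 made up 35.7%, 31.4%, 35.9% and 21.3% of the cluster in HGC27 negative, HGC27 positive, AGS negative and AGS positive, and miR-183-5p made up 60.4%, 57.4%, 60.3% and 73.0%. The order of the members stayed the same, and with the negative probe the proportions of the lines came closer together.

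**Figure D2:**
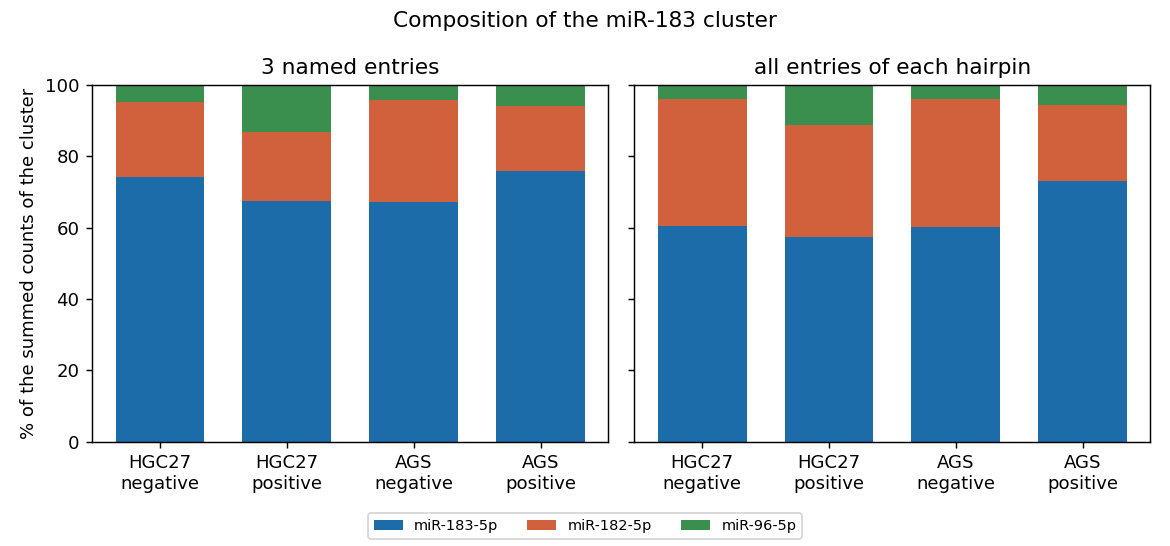
Share (%) of each member in the summed counts of the cluster, 1 stacked bar per library, from the 3 named entries (left) and with the extended entry counted as miR-182 (right). In the left panel miR-96-5p reaches 13.1% in HGC27 with the positive probe and 4.32% to 5.87% in the other libraries.

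The comparison of the probes asks whether recovery of the members was higher with the positive probe. In HGC27 miR-96-5p had a higher value with the positive probe, whereas miR-183-5p and miR-182-5p had lower values. The ratio, computed as (score + 1) with the positive probe over (score + 1) with the negative probe, was 1.75 for miR-96-5p (exact 95% counting interval 1.60 to 1.92, log2 ratio 0.81). It was 0.583 for miR-183-5p (0.566 to 0.601, log2 ratio −0.78). It was 0.590 for miR-182-5p (0.557 to 0.624, log2 ratio −0.76). None of the 3 members reached a ratio of at least 2, which 28.1% of the 366 entries with at least 10 counts in a HGC27 library did. None was at or below 0.5, where 33.3% of those entries lay.

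The extended miR-182 entry was at 0.493 (0.466 to 0.522), an interval that holds the threshold of 0.5. The median log2 ratio of all 366 entries was −0.12, so miR-96-5p stood 0.93 above it and miR-183-5p and miR-182-5p stood 0.66 and 0.64 below it. Of these entries 30.9% had a higher ratio than miR-96-5p and 62.3% a higher ratio than miR-183-5p, so the members lay well within the spread of the table. Under 5 other scalings of the libraries the 3 directions in HGC27 were the same, with log2 ratios from 0.74 to 0.99 for miR-96-5p.

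In AGS miR-182-5p had a lower value with the positive probe, and the other members differed little between the probes. The ratio of miR-182-5p was 0.598 (0.536 to 0.664, log2 ratio −0.74). That of miR-183-5p was 1.05 (0.993 to 1.11, log2 ratio 0.07), an interval that includes no change. That of miR-96-5p was 1.24 (1.02 to 1.57, log2 ratio 0.31). Again none of the members had a ratio of at least 2, against 40.4% of the 230 entries with at least 10 counts, and none was at or below 0.5, against 31.3%. The extended miR-182 entry was at 0.320 (0.252 to 0.391).

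The AGS ratios depended on the scaling. The median log2 ratio of all 230 entries was 0.42 with the deposited score and −0.95 when the totals were taken without miR-372-3p. With miR-372-3p left out, the log2 ratio was −1.43 for miR-183-5p, −2.24 for miR-182-5p and −1.16 for miR-96-5p, and all 3 were at or below a ratio of 0.5, as were 48.3% of the entries. The ratio of miR-96-5p was also below 1 with raw counts, TMM and DESeq2 size factors, so neither it nor miR-183-5p has a direction in AGS that holds across scalings. miR-182-5p was below the median of all entries under every scaling used, by 1.16 with the deposited score and by up to 1.29. Under the same scalings miR-183-5p was below it by 0.34 to 0.48 and miR-96-5p by 0.10 to 0.21. In HGC27 miR-96-5p was instead 0.91 to 0.93 above the median.

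**Figure D3:**
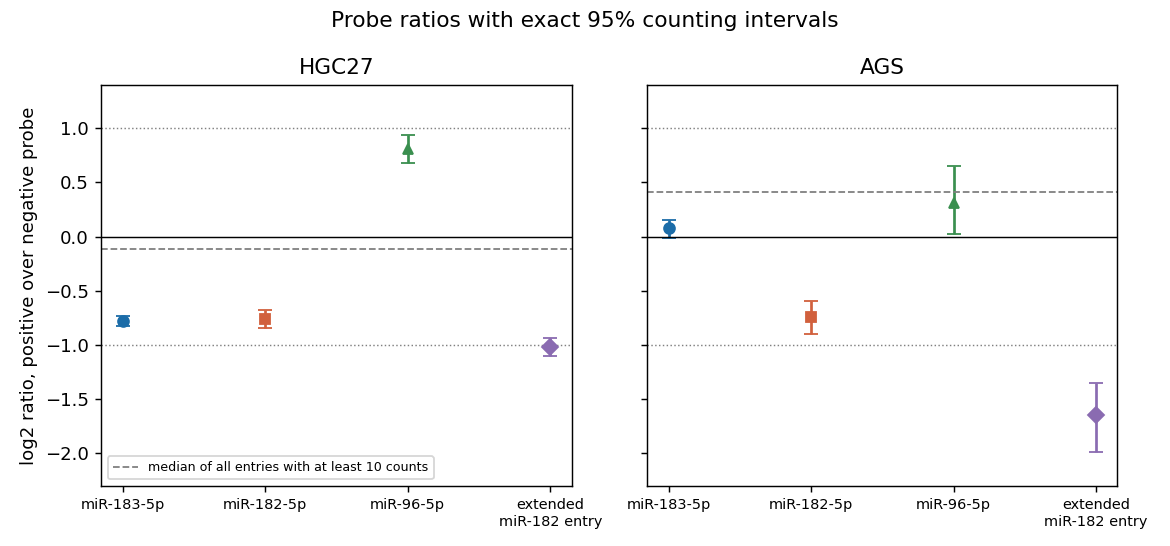
Log2 ratio of the positive over the negative probe (deposited score + 1) in HGC27 (left) and AGS (right), with exact 95% counting intervals as bars, the median of all entries with at least 10 counts as a dashed line and the thresholds at log2 ratios of 1 and −1 as dotted lines. In HGC27 miR-96-5p lies at 0.81 and the other members near −0.8, and in AGS the members lie between −0.74 and 0.31.

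A ratio of 2 members' probe ratios is free of the scaling. In HGC27 the probe ratio of miR-96-5p was 3.01 times that of miR-183-5p (exact 95% interval 2.74 to 3.31) and 2.98 times that of miR-182-5p (2.68 to 3.31). The probe ratio of miR-182-5p relative to miR-183-5p was 1.01 (0.949 to 1.08) in HGC27, and 0.925 (0.880 to 0.973) when the extended entry was counted with miR-182-5p. In AGS the pattern was another one: miR-96-5p relative to miR-183-5p gave 1.20 (0.960 to 1.51), miR-96-5p relative to miR-182-5p gave 2.12 (1.66 to 2.70), and miR-182-5p relative to miR-183-5p gave 0.568 (0.502 to 0.641). With the extended entry counted, the last of these was 0.490 (0.438 to 0.548). miR-96-5p was thus above miR-182-5p in both lines, and miR-183-5p was above miR-182-5p in AGS, with a small difference in HGC27 that depended on the extended entry. The extended entry was below miR-182-5p in both lines, at 0.837 (0.772 to 0.907) in HGC27 and 0.528 (0.412 to 0.673) in AGS.

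The miR-106b-25 cluster, another set of 3 miRNAs from 1 primary transcript, was wider in its probe ratios. Its log2 ratios spanned 3.95 in HGC27 and 4.74 in AGS, against 1.59 and 1.05 in the miR-183 cluster. The values of miR-93-5p were 1959 and 404 normalized tags in HGC27 with the negative and the positive probe, while those of miR-25-3p were 1080 and 2113. Members of a shared transcript thus differed in their probe ratios in either cluster, and the difference between the clusters was not tested.

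The seed matches in the FN1 3′-UTR were counted as a description of its sequence. In the annotated FN1 transcript used here, the 3′-UTR spans 215360454 to 215361554 on the minus strand of chromosome 2 (GRCh38) and is 1101 bases long. The complement of bases 2 to 8 of miR-96-5p, GUGCCAA, occurred in it 1 time, at chr2:215360916-215360922, shown in capitals with its neighbours.
match to the miR-96-5p seed: uuauacuguauGUGCCAAagcuuuacuac
The motif of miR-183-5p (GUGCCAU) and that of miR-182-5p (UUGCCAA) did not occur in it, and none of the 3 occurred on the opposite strand. Among 9579 other genes, the first 1101 bases of the 3′-UTR held the motif of miR-96-5p in 6.39%, that of miR-183-5p in 7.37% and that of miR-182-5p in 9.55%. The sequence of the probes is not given in the sources used here, and a match in letters is not a measured site.

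The edgeR fit of all 4 libraries, with the line as a covariate, is the one comparison in which each probe has more than 1 library. The lines stand in for replicates of a probe in it, so its p-values do not measure the spread between repeated pull-downs. Of 271 entries tested, 19 (7.01%) changed with the probe at an adjusted p under 0.05, and 0 of the 3 members did. None of the members had an unadjusted p under 0.05 in edgeR or in DESeq2, and DESeq2 called none of them. The edgeR log2 fold change of the positive over the negative probe was −1.16 ± 1.17 (SE; adjusted p = 0.616) for miR-182-5p, −0.76 ± 1.25 (adjusted p = 0.771) for miR-183-5p and 0.17 ± 1.12 (adjusted p = 0.937) for miR-96-5p. Over this fit and the alternatives tried, the adjusted p ran from 0.616 to 0.947, from 0.771 to 0.947 and from 0.599 to 0.995 in the same order. The fit had 1 residual degree of freedom. Its standard errors, derived from the fold change and the test statistic, exceeded 1 on the log2 scale, so a change of about 2-fold could not be seen in it. They depended on the scaling: with library totals in place of TMM they were 0.707 for miR-182-5p, 0.898 for miR-183-5p and 0.714 for miR-96-5p.

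The comparison of the lines asks how the level of the cluster differed between HGC27 and AGS material. In pull-down libraries a lower level in the cells and a lower recovery on the beads cannot be told apart. In normalized tags all 3 members were lower in AGS with either probe. With the negative probe miR-183-5p was 9.67-fold lower in AGS (log2 ratio −3.27), miR-96-5p was 9.28-fold lower (−3.21) and miR-182-5p was 6.42-fold lower (−2.68). All 3 were at or below a ratio of 0.5, as were 85.8% of the 330 entries with at least 10 counts, while 8.79% were at or above 2. The median log2 ratio of all entries was −2.81, so the members lay near the middle of the table.

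With the positive probe miR-96-5p was 13.1-fold lower in AGS (log2 ratio −3.71), miR-182-5p was 6.34-fold lower (−2.66) and miR-183-5p was 5.35-fold lower (−2.42). Again all 3 were at or below 0.5, as were 74.7% of 332 entries, with 13.0% at or above 2 and a median log2 ratio of −2.58. The extended miR-182 entry differed more between the lines than any member, at 17.1-fold and 26.4-fold lower in AGS with the negative and the positive probe.

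The line difference depended on the scaling. With the negative probe the log2 ratio of the summed members was −3.13 with the deposited score, −0.47 with totals taken without miR-372-3p, −0.10 with TMM and −0.03 with DESeq2 size factors. With the positive probe it was −2.59, −1.52, −0.34 and −0.03. The median of all entries moved along, from −2.81 to −0.68 with the negative and from −2.58 to −0.85 with the positive probe under DESeq2 size factors. Relative to that median, with the negative probe miR-182-5p was 0.13 to 1.09 above it under every scaling used. Counted with the extended entry, miR-182-5p lay below the median with the deposited score, at −3.26 with the negative and −3.32 with the positive probe. With the negative probe miR-183-5p and miR-96-5p were 0.47 and 0.41 below the median with the deposited score. With the other scalings they were 0.11 to 0.51 and 0.12 to 0.51 above it. In the positive probe libraries miR-96-5p was 0.33 to 1.13 below the median and miR-183-5p was 0.16 to 0.99 above it under every scaling used. miR-182-5p was 0.08 below it with the deposited score and 0.48 to 0.74 above it with the others.

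**Figure D4:**
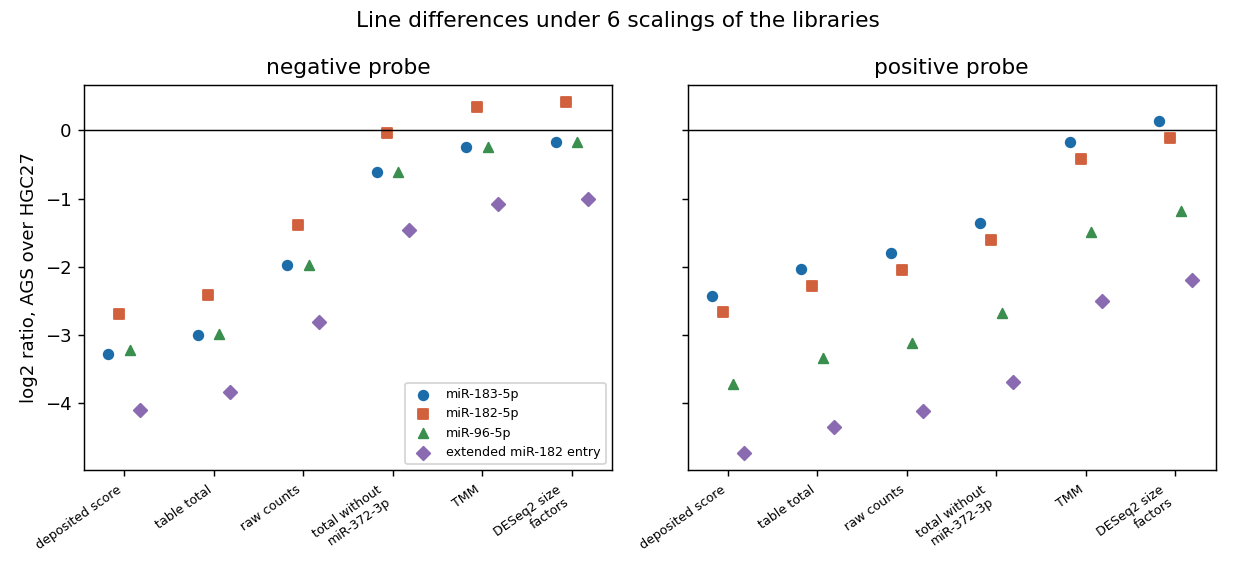
Log2 ratio of AGS over HGC27 for the 3 members and the extended miR-182 entry under 6 scalings of the libraries, with the negative (left) and the positive probe (right). The values of the members rise from between −3.71 and −2.42 with the deposited score toward 0 with TMM and DESeq2 size factors, and miR-96-5p with the positive probe is the lowest member there, at −1.18 with DESeq2 size factors.

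Within the cluster the lines could be compared free of scaling. With the negative probe the ratio of miR-96-5p to miR-183-5p in AGS was 1.00 times that in HGC27 (exact 95% interval 0.847 to 1.18), and the ratio of miR-182-5p to miR-183-5p was 1.50 times that in HGC27 (1.39 to 1.62). With the positive probe the same figures were 0.400 (0.333 to 0.478) and 0.841 (0.749 to 0.943). The extended entry relative to miR-182-5p was lower in AGS with either probe, at 0.374 (0.334 to 0.418) with the negative and 0.236 (0.186 to 0.296) with the positive probe. The ratio of miR-96-5p to miR-182-5p was also lower in AGS with either probe, at 0.668 (0.561 to 0.792) and 0.476 (0.388 to 0.581) times that in HGC27 with the negative and the positive probe. These ratios depended on how miR-182 was counted. With the extended entry added to miR-182-5p, the negative probe gave 0.991 (0.837 to 1.17) for miR-96-5p to miR-182-5p and 1.01 (0.945 to 1.08) for miR-182-5p to miR-183-5p, so no line difference was detectable in either. The same ratios with the positive probe were 0.748 (0.614 to 0.908) and 0.535 (0.482 to 0.592).

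In the edgeR fit 81 of 271 entries (29.9%) passed the test for the line at an adjusted p under 0.05, and 0 of the 3 members did. The probes stand in for replicates of a line here, so the p-values do not measure the spread between cultures of a line. None of the members had an unadjusted p under 0.05 in this fit or in DESeq2. The log2 fold change of AGS over HGC27 was 0.20 ± 1.16 (SE; adjusted p = 0.892) for miR-182-5p, 0.03 ± 1.24 (adjusted p = 0.985) for miR-183-5p and −0.63 ± 1.13 (adjusted p = 0.709) for miR-96-5p, against a median of −0.63 over all entries. With library totals in place of TMM the median was −3.17 and 169 entries (62.4%) passed the test, 154 of them lower in AGS. The 3 members were among these, with log2 fold changes of −2.35 (edgeR adjusted p = 0.0218), −2.51 (adjusted p = 0.0415) and −3.17 (adjusted p = 0.00754) for miR-182-5p, miR-183-5p and miR-96-5p. Over all settings of this edgeR or DESeq2 comparison the adjusted p ran from 0.0218 to 0.977, from 0.0415 to 0.997 and from 0.00754 to 0.845 in that order. Whether the cluster was lower in AGS than in HGC27 material therefore turned on the scaling.

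Epithelial and mesenchymal marker miRNAs differed between the lines in opposite directions. With the negative probe the 5 miRNAs of the miR-200 list, which mark epithelial cells, had log2 ratios of 1.58 to 6.19 in favour of AGS. The lowest was that of miR-141-3p, at 12 counts in AGS against 0 in HGC27. With the positive probe the ratios of the list were 0 to 2.94, and 4 of the 5 were in favour of AGS. The 6 epithelial markers, this list and miR-203a-3p, summed to 780 and 371 normalized tags in HGC27 and to 10294 and 821 in AGS with the negative and the positive probe, with miR-141-3p at 0 in all libraries but AGS with the negative probe. The 5 mesenchymal markers (miR-199a-3p, miR-199a-5p, miR-214-3p, miR-143-3p and miR-145-5p) summed to 3521 and 3616 in HGC27 and to 11 and 39 in AGS, with miR-145-5p at 0 in both AGS libraries and miR-214-3p at 0 in AGS with the positive probe. The HGC27 sums were mostly different members. In HGC27 miR-199a-3p had 2646 normalized tags with the negative and 21 with the positive probe, and miR-143-3p had 688 and 3301. The labelled source was gastric cancer cells in both lines, and with the negative probe the summed epithelial markers of HGC27 were below those of AGS. The part of these marker differences in the values of the miR-183 cluster was not tested.

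The known miRNAs whose pattern over the 4 libraries was nearest to the mean pattern of the members were miR-1301-3p, miR-374a-5p, miR-671-3p, miR-652-3p and miR-101-3p. Likeness was the distance between centred log2 profiles of tags per 1000000 of the table total over 4 libraries, among 187 known miRNAs with at least 100 counts summed. The distance was 0.167 for miR-1301-3p, with 114, 100, 33 and 16 counts in HGC27 negative, HGC27 positive, AGS negative and AGS positive. It was 0.408 to 0.657 for the next 4. Some of these rest on few reads in AGS negative and AGS positive. The counts there were 33 and 27 for miR-374a-5p and 12 and 7 for miR-671-3p. For miR-652-3p they were 7 and 7, and for miR-101-3p 112 and 45. No counting error was set beside the distances. The members' own distances from their mean were 0.431 for miR-183-5p, 0.664 for miR-182-5p and 0.944 for miR-96-5p, so the 5 named miRNAs were nearer to the mean pattern than miR-182-5p and miR-96-5p were.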

How the data were processed

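The authors deposited raw counts of tags per mature miRNA and a score, which is tags per 1000000 as whole numbers after rounding. The submitters' processing notes name cutadapt 1.9.3, Novoalign 3.02.12 and build hg38, without their roles. The miRNA database release is not given in the sources used here. The divisors recovered from counts and score exceeded the table totals, which were 35.7% to 50.0% of them. The 901 rows were collapsed to 843 names. Nothing says that libraries were separate cultures.

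Probe and line ratios used the score + 1, with exact counting intervals from the counts (scipy 1.17.1). These intervals cover counting error only, since each group was 1 library. The paper's miRNA sequencing methods name no molecular identifiers. Analysis had been planned for unrounded tags per 1000000. Log2 fold changes came from counts in edgeR 4.0.16 (R 4.3.3; TMM, filterByExpr, quasi-likelihood test, Benjamini-Hochberg) with line and probe as terms. Alternatives were other scalings, filters, pseudocounts, models and DESeq2 1.42.0. Scripts were tested on simulated data. Named were the members, their other arms, entries sharing a seed or sequence, the 5 nearest in pattern, the miR-106b-25 and miR-200 lists and a dominating entry. Members and lists were chosen with earlier results of these data known.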

Additional observations from a re-analysis of the deposited data

Results flagged for a closer look

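The probe ratio of miR-183-5p differed in direction between the lines. Its log2 ratio of the positive over the negative probe was 0.07 in AGS and −0.78 in HGC27, so that AGS was higher by 0.85, with 1 library per probe in each line. The difference between the lines was not tested, and the counting interval of the AGS ratio (0.993 to 1.11) includes no change. In AGS the sign also turned under other scalings, to −0.68 with raw counts and −0.65 with TMM.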

How the results depend on the processing

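The only pairing in the labels is that of the probes by cell line, and no replicate numbers are given. The edgeR probe fit compares the probes within a line through its line covariate, with 19 calls, and 0 without that covariate. With 1 library per group there was no replicate to leave out. Depth in AGS was low for miR-96-5p (199 and 150 counts) and for the extended entry (533 and 100 counts). The extended entry and the fits without miR-372-3p were added as alternatives after seeing the data. Where a value moved, the cause was not tested.

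For the summed members, the log2 probe ratio in HGC27 was −0.64, and −0.72 with raw counts, −0.55 with table totals, −0.58 with TMM, −0.46 with DESeq2 size factors, −0.55 with totals taken without miR-372-3p and −0.71 with the extended entry added. In AGS it was −0.10, and −0.85, 0.10 (turned), −0.82, −0.46, −1.60 and −0.21 in the same order. The line ratio with the negative probe was −3.13, and −1.83, −2.85, −0.10, −0.0296, −0.47 and −3.27. With the positive probe it was −2.59, and −1.96, −2.20, −0.34, −0.0295, −1.52 and −2.77.

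Single members turned as follows. The AGS probe ratio of miR-183-5p, whose counting interval included no change, was 0.07, and −0.68 with raw counts, −0.65 with TMM, −0.28 with DESeq2 size factors and −1.43 without miR-372-3p. The AGS probe ratio of miR-96-5p was −0.41 with raw counts, −0.38 with TMM, −0.0148 with DESeq2 size factors and −1.16 without miR-372-3p. The line ratio of miR-182-5p with the negative probe was 0.34 with TMM and 0.41 with DESeq2 size factors, and that of miR-183-5p with the positive probe was 0.14 with DESeq2 size factors. With the HGC27 libraries left out no fit was made, and the log2 probe ratio of miR-96-5p was the AGS value of −0.38 with TMM above. The edgeR line fold change of miR-183-5p was −2.51 with library totals and −0.21 with no filter. It was −0.36 with a minimum of 10 counts in each library and −0.0111 without miR-372-3p. That of miR-182-5p was −2.35, −0.0388 and −0.19 with the first 3 of these settings. Leaving out a probe gave no fit but the TMM ratio of the remaining libraries, with TMM factors from all entries rather than the 271 tested. For miR-183-5p it was −0.17 without the negative and −0.24 without the positive probe libraries. For miR-182-5p it was −0.42 without the negative probe libraries. These turns cannot be laid to the libraries left out, since the scaling differed too.

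Counts of entries at or past the ratios 2 and 0.5 were 103 and 122 in HGC27, 283 and 257 with no minimum count and 35 and 54 with at least 100 counts. In AGS they were 93 and 72, with 181 at or above 2 with no minimum, and 47 and 37 with at least 100 counts. Between the lines with the negative probe they were 29 and 283, with 529 at or below 0.5 with no minimum, and 16 and 133 with at least 100 counts. With the positive probe they were 43 and 248, then 88 and 515, then 27 and 104. The edgeR probe calls were 19, and 0 with library totals (52 at an unadjusted p under 0.05), 32 with DESeq2 size factors, 49 by DESeq2, 0 with no filter (66), 0 with a minimum of 10 counts in each library (16) and 0 with no line covariate (17). The line calls were 81, and 169 with library totals, 0 with no filter (95 at an unadjusted p under 0.05) and 15 with that minimum. The share of miR-183-5p was 60.4%, 57.4%, 60.3% and 73.0% with all entries of each hairpin, in HGC27 negative, HGC27 positive, AGS negative and AGS positive. The ratio of the probe ratios of miR-182-5p and miR-183-5p was 0.925 in HGC27 and 0.490 in AGS with the extended entry added. With that entry added, the line ratio of miR-96-5p to miR-182-5p was 0.991 with the negative and 0.748 with the positive probe, and that of miR-182-5p to miR-183-5p was 1.01 and 0.535. Of the 5 nearest miRNAs, 1 had the counts to pass a minimum of 1000, and it was among the nearest there, so this filter does not test the other 4.

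Among the remaining alternatives, 98 values of single entries stayed within their counting interval or on their side of the threshold. The remaining 18 summary values were within their counting interval or, for counts, within 1.5 times the main count. With no minimum, the count at or below 0.5 in AGS was 104. The count at or above 2 between the lines with the negative probe was 37 with no minimum. The line calls were 80, 62, 65 and 58 with DESeq2 size factors, by DESeq2, with no probe covariate and without miR-372-3p. Without miR-372-3p the probe calls were 16. When the deposited score replaced the table total, 4 of the 5 nearest miRNAs stayed among the nearest. A further 70 values of single entries moved by more than that interval. With library totals miR-96-5p and the extended entry, 2 values in all, passed the threshold for the line in edgeR, in the direction they had with TMM.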
